A study of Felis catus with 3 samples.

Results

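The genes described here encode parts of the ubiquitin-proteasome system and the DNAJ co-chaperones, measured in noninduced feline adipose-derived mesenchymal stem cells (ASCs). Members were all genes whose symbol in the available rows of the study's gene table starts with PSMA, PSMB, PSMC, PSMD, PSME, PSMG, UBE, FBXO, FBXL, FBXW, RNF or DNAJ, or with USP, UBA, CUL or TRIM followed by a digit. The rule found 56 genes among the 1811 with a symbol, out of 21529 genes quantified. No cullin (CUL), PSME or PSMG gene was among them. The table was available for 1997 genes, so these 56 are a part of each family, and the remaining subunits, ligases and chaperones were not analysed here.

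The cells were primary cultures from the adipose tissue of 3 cats, named Feline ASC 1, 2 and 3, with 1 RNA library per culture. They were fibroblast-like stromal cells grown untreated in MEM alpha with 10% fetal bovine serum and, per the labels, used at passages 3 to 4. All 3 lines had the same condition, so there was no treated or control group, and errors are SDs of the 3 cultures. With 1 library per line, variation between repeat cultures or libraries of a line was not measured, and no test between lines was possible. Age, sex and breed of the cats were not given in the sources used here, and the legend of the study's gene table gives passage 3 for the sequenced cultures. Expression is in FPKM, the number of sequenced fragments scaled to transcript length and library size, which is a level per length and can be compared between genes.

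Of the markers of the labelled cell type, 2 of 9 could be looked up. The stromal marker ENG (endoglin) was at 72.5, 117 and 73.9 FPKM in Feline ASC 1, 2 and 3, and the fibrillar collagen gene COL5A1 was at 178, 480 and 261 FPKM. Markers of other cells were low: the 4 of 7 leukocyte markers found did not exceed 1.03 FPKM in any line, with CD2 listed at 0, and the endothelial marker TEK was at 0.0595 FPKM or less. The defining genes THY1, NT5E, CD44 and PTPRC had no symbol here and were not checked.

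Ubiquitin is a small protein that is joined to other proteins as a tag. An E1 enzyme activates it, an E2 enzyme carries it, and an E3 ligase (such as an F-box, RING finger or TRIM protein) chooses the substrate. Chains of ubiquitin send many substrates to the proteasome, a barrel-shaped protease with a regulatory cap, and deubiquitinases (USP) remove the tag. DNAJ proteins carry a J domain, through which they stimulate the ATPase of heat shock protein chaperones that fold proteins or pass them on for degradation. No sequences of these genes were in the files analysed here.

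Median levels were higher in the proteasome, E2 and J-domain genes and in the single E1 gene than in the TRIM genes. A moderate level, defined as at least 15 FPKM in each of the 3 lines, was reached by 27 of the 56 genes (48.2%), against 22.1% of all genes and 30.4% of genes with a symbol. All 9 proteasome genes, the only E1, 3 of 4 E2 genes and 5 of 8 J-domain genes were at this level, compared with 4 of 11 F-box, 3 of 9 RING finger, 2 of 7 deubiquitinase and 0 of 7 TRIM genes. The F-box (36.4%), RING finger (33.3%) and deubiquitinase (28.6%) shares were thus near that of genes with a symbol. Of the TRIM genes, 57.1% were under 1 FPKM in every line, against 46.1% of all genes. These groups are small, and their shares were not tested. A high level, defined as at least 100 FPKM in each line, was reached by 2 genes, UBA1 and PSMD8, which is 3.57% of the members against 3.59% of all genes. A further 10 genes were under 1 FPKM in every line (17.9% against 46.1% of all genes), of which 4 were listed at exactly 0 in all lines (7.14% against 29.0%). The other 19 genes lay in between. Nearest to the moderate threshold were RNF144A and USP11, inside it with lowest values of 15.6 and 17.2 FPKM, and USP25 and RNF185, outside it with 14.0 and 13.5 FPKM. Together the 56 genes held 0.241%, 0.227% and 0.237% of the summed FPKM of Feline ASC 1, 2 and 3.

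**Figure D1:**
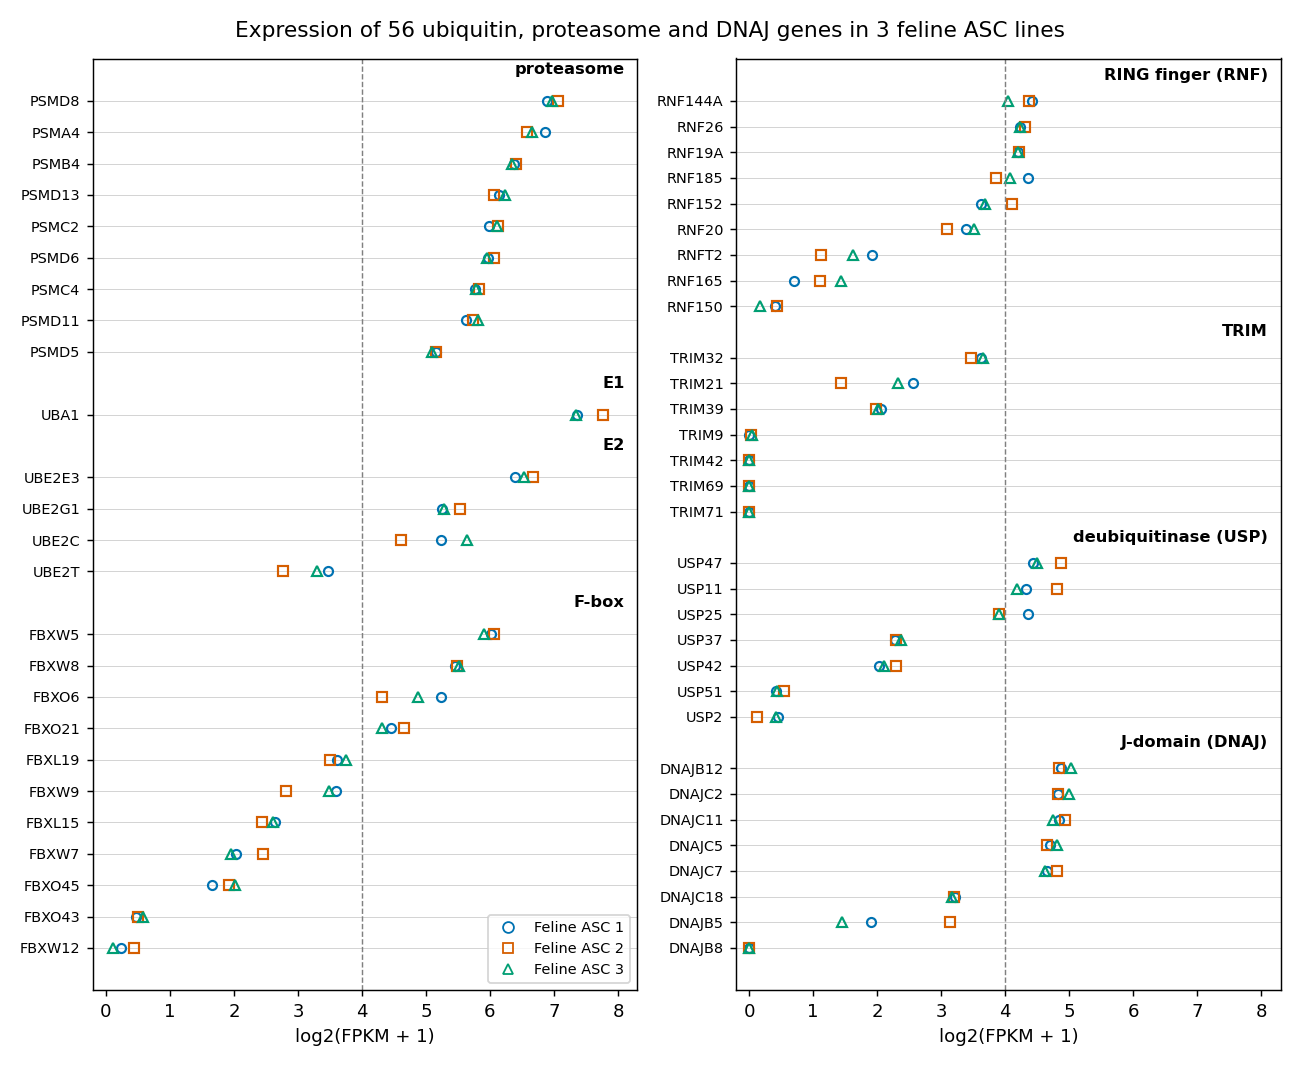
Level of each of the 56 genes, as log2(FPKM + 1), in Feline ASC 1 (circles), 2 (squares) and 3 (triangles), grouped by role. The dashed line marks 15 FPKM. All 9 proteasome genes lie to its right with the 3 symbols close together, whereas every TRIM gene lies to its left.

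The proteasome genes were expressed at 34.2 to 124 FPKM (means of the lines) and differed little between cats. Their median coefficient of variation (CV, the SD as a share of the mean) over the 3 lines was 5.30%, against 9.72% for all 4755 genes of at least moderate level, and 8 of the 9 were below that value. Their summed level was 644, 653 and 650 FPKM in Feline ASC 1, 2 and 3. None reached a 1.5-fold difference between lines, and the largest ratio between lines, taken of FPKM + 1 in the highest and lowest line, was 1.22, for PSMA4.

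The proteolytic core of the proteasome was represented by PSMA4, a subunit of its outer alpha rings, and PSMB4, a beta ring subunit without protease activity. PSMA4 was at 115, 94.1 and 100.1 FPKM in Feline ASC 1, 2 and 3, and PSMB4 at 82.4, 83.5 and 79.9 FPKM. PSMA4 was above PSMB4 in every line, and their ratio ranged from 1.13 in Feline ASC 2 to 1.39 in Feline ASC 1. In FPKM, PSMA4 had the widest spread of the 9 genes (CV 10.2%) and PSMB4 the narrowest (2.22%). CVs as small as that of PSMB4 depend on the scale, because the summed FPKM of the lines differed (621797, 688297 and 636464). The order of the CVs may therefore change on another scale.

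The cap unfolds substrates with a ring of ATPases, of which PSMC2 and PSMC4 were present. PSMC2 was at 62.4, 68.6 and 68.3 FPKM and PSMC4 at 53.2, 56.1 and 53.7 FPKM. Their ratio was 1.22 ± 0.05 (SD, n = 3 lines). PSMC2 lies on chromosome A2 from 81765248 to 81778379 in Felis Catus 8.0, next to the J-domain gene DNAJC2 (81781355 to 81818406), which was lower in every line.

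The lid of the cap was represented by PSMD6, PSMD8, PSMD11 and PSMD13. PSMD8 was the highest proteasome gene in every line, with 117, 132 and 124 FPKM. PSMD13 was at 69.4, 66.2 and 74.3 FPKM, PSMD6 at 61.1 to 65.7 FPKM and PSMD11 at 48.2 to 55.3 FPKM. The deacetylase gene SIRT3 was assigned the same locus as PSMD13 (chromosome D1, 116811250 to 116843309), at 6.68, 6.14 and 5.46 FPKM. PSMD5, a chaperone that helps to assemble the cap and is not part of the finished particle, was lowest of the 9 in every line, with 34.7, 34.6 and 33.3 FPKM. The highest gene, PSMD8, was 3.64 ± 0.23 times as high as PSMD5 (SD, n = 3 lines).

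The order of the proteasome genes was nearly the same in each cat. Of the 8 pairs of neighbours in the order of means, 6 kept their order in all 3 lines, and the ranges of 3 pairs overlapped. These were PSMD13 and PSMC2, PSMC4 and PSMD11, and PSMC2 and PSMD6. PSMC2 was nevertheless above PSMD6 within each line, whereas the other overlapping pairs changed order between lines. PSMD8, PSMA4 and PSMB4 were the top 3 genes and PSMD5 the last in every line.

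**Figure D2:**
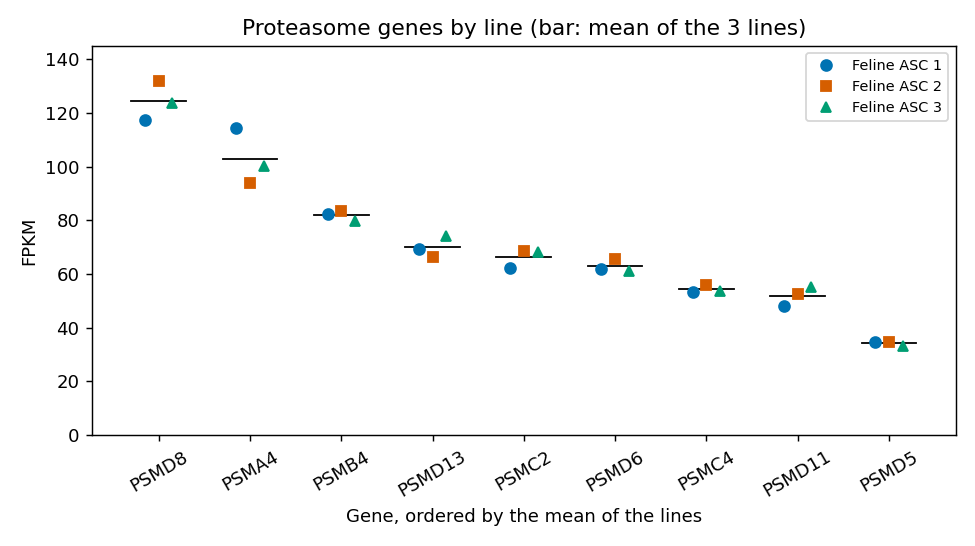
FPKM of the 9 proteasome genes in each line (symbols) with the mean of the 3 lines (bar). PSMD8 stands highest with 117 to 132 FPKM and PSMD5 lowest with 33.3 to 34.7 FPKM, and PSMA4 has the widest spread.

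UBA1, the main E1 enzyme and thus the entry point of ubiquitin into the system, was the highest of all 56 genes, at 163, 216 and 162 FPKM. It ranked 520, 419 and 519 among the 21529 genes of Feline ASC 1, 2 and 3. UBA1 was 1.32 times as high in Feline ASC 2 as in Feline ASC 1, whereas Feline ASC 1 and 3 were nearly equal. It lies on chromosome X from 40682328 to 40697503, close to CDK16 (40705323 to 40712679) and the deubiquitinase gene USP11 (40715534 to 40731998). CDK16 was at 51.0, 69.3 and 52.1 FPKM and USP11 at 18.9, 27.0 and 17.2 FPKM. Both were thus also highest in Feline ASC 2, by 1.36 and 1.43 times against Feline ASC 1. Feline ASC 2 was the highest line for 43.4% of all genes of at least moderate level. USP51, farther along the chromosome (from 47224381), was also highest there, at 0.339, 0.466 and 0.346 FPKM. RBM10, on the other side of UBA1 (40639277 to 40666739), was at 21.0, 19.2 and 20.3 FPKM and was lowest in Feline ASC 2. The neighbours were looked at after their values were seen, and why they differed was not tested. With the lines scaled to an equal sum of 1000000 (TPM), the ratio of the highest line to the lowest was 1.23 for UBA1 and 1.44 for USP11, compared with 1.33 and 1.54 in FPKM.

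Of the E2 enzymes, UBE2E3 and UBE2G1 varied less between cats (CVs of 9.64% and 11.2%) than UBE2C and UBE2T (34.9% and 26.8%). The median CV of all genes of at least moderate level, a set that leaves out the lower UBE2T, was 9.72%. UBE2E3 was at 82.8, 100.5 and 91.9 FPKM and was above the other E2 genes in every line. UBE2G1, which extends ubiquitin chains, was at 37.2, 45.4 and 38.0 FPKM. UBE2C, the partner of the anaphase-promoting complex that marks mitotic cyclins for destruction, was at 36.8, 23.5 and 49.0 FPKM, and its range overlapped that of UBE2G1. UBE2T, which acts in the repair of DNA crosslinks, was at 10.1, 5.80 and 8.88 FPKM and was below the other E2 genes in every line. Both were lowest in Feline ASC 2, but UBE2C was highest in Feline ASC 3 and UBE2T in Feline ASC 1.

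The cell cycle genes that could be looked up (4 of 9 on the list) were also lowest in Feline ASC 2 and highest in Feline ASC 3, as UBE2C was. Of all genes of at least moderate level, 34.4% were lowest in Feline ASC 2 and 28.5% were highest in Feline ASC 3. CCNB1, the mitotic cyclin B1, was at 40.4, 24.6 and 51.3 FPKM. The mitotic kinesin KIF20A was at 17.4, 10.5 and 19.8 FPKM, the spindle factor TPX2 at 17.5, 12.8 and 24.2 FPKM and the condensin gene SMC2 at 12.3, 8.44 and 16.1 FPKM. Relative to the mean of the lines, Feline ASC 2 had 64.6% for UBE2C, 70.3% for UBE2T and between 63.5% and 70.4% for these 4 genes. The share of dividing cells in the cultures was not measured, and its part in the levels of UBE2C and UBE2T was not tested. In such bulk RNA, fewer cells that express a gene and less RNA per cell cannot be told apart.

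F-box proteins hold the substrate in ligases built on a cullin, and their 11 genes ranged from 0.205 to 62.8 FPKM (means of the lines). FBXW5 was highest in every line (63.6, 65.7 and 59.2 FPKM), followed by FBXW8, a partner of the cullin CUL7, with 42.9, 43.7 and 44.5 FPKM. FBXW8 had a CV of 1.87% in FPKM, a small spread that depends on the scale. FBXO6, which recognises misfolded glycoproteins, differed most among the F-box genes of moderate level, with 36.7, 18.9 and 28.4 FPKM. FBXO21 was at 20.8, 24.3 and 18.9 FPKM.

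The other F-box genes were below 15 FPKM. FBXL19, which binds unmethylated CpG DNA, was at 10.3 to 12.5 FPKM, and FBXW9 was at 11.0, 6.03 and 10.2 FPKM. FBXL15 (4.43 to 5.21 FPKM), FBXW7 (3.10, 4.46 and 2.86 FPKM) and FBXO45 (2.14 to 3.03 FPKM) were lower. FBXW7, which directs the degradation of cyclin E and MYC, was thus expressed at a low level in each cat. FBXO43, a meiotic inhibitor of the anaphase-promoting complex, was at 0.380 to 0.489 FPKM and FBXW12 at 0.0824 to 0.353 FPKM.

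The 9 RING finger genes formed a group of modest level. RNF144A (20.5, 19.6 and 15.6 FPKM), RNF26 (17.8, 18.7 and 17.9 FPKM) and RNF19A (17.5 FPKM in each line) were of moderate level. In FPKM, RNF19A had the smallest spread of the 27 genes at this level (CV 0.158%), and RNF26, an endoplasmic reticulum membrane ligase, had a CV of 2.94%. CVs this small depend on the scale, because the summed FPKM of the lines differed. RNF185, another ligase of that membrane, was at 19.5, 13.5 and 15.8 FPKM, RNF152 of the lysosome at 11.3, 16.3 and 11.8 FPKM, and RNF20, which ubiquitinates histone H2B, at 9.49, 7.54 and 10.4 FPKM. RNF185 and RNF20 were lowest in Feline ASC 2, where RNF152 was highest. The remaining genes were low in every line, with RNFT2 at 2.79, 1.19 and 2.09 FPKM, RNF165 at 0.620, 1.14 and 1.70 FPKM and RNF150 at 0.128 to 0.356 FPKM. The loci of RNF152 and RNF150 spanned 609 and 682 bp, so their FPKM rest on short gene models.

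The 7 TRIM genes were low or absent from the values. TRIM32 was highest with 11.4, 10.0 and 11.6 FPKM. Its locus covered 875051 bp of chromosome D4, from 78122279 to 78997330. TRIM21, the cytosolic receptor for antibody-coated pathogens, was at 4.90, 1.72 and 4.01 FPKM, and TRIM39 was at 3.19, 2.97 and 3.04 FPKM. TRIM9, a ligase of neurons, was listed at 0, 0.0215 and 0.0305 FPKM. TRIM42, TRIM69 and TRIM71, the last a regulator of early development, were listed at 0 in every line.

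Among the 7 deubiquitinases, USP47 was at 20.5, 28.3 and 21.6 FPKM and USP11 was next, and the ranges of these genes overlapped. Both were highest in Feline ASC 2. USP25 was at 19.5, 14.0 and 14.0 FPKM and thus highest in Feline ASC 1. USP37 was at 3.83 to 4.17 FPKM and USP42 at 3.09 to 3.89 FPKM. USP51 and USP2, which acts in the circadian clock, were under 0.5 FPKM in every line.

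The J-domain genes fell into a group at one level and 3 genes below it. DNAJB12, an endoplasmic reticulum membrane protein, was at 28.4, 27.5 and 31.7 FPKM, DNAJC2, which sits at the ribosome, at 27.4, 27.4 and 30.8 FPKM, and DNAJC11 of mitochondria at 27.6, 29.6 and 25.9 FPKM. DNAJC5, the cysteine string protein of secretory vesicles, was at 25.04, 24.2 and 27.0 FPKM and DNAJC7, which also binds HSP90, at 24.2, 27.0 and 23.7 FPKM. Each gene in this order overlapped the next in range, whereas DNAJB12 and DNAJC2 lay above DNAJC5 and DNAJC7 without overlap. The CVs of these 5 genes were 5.76 to 7.55%. DNAJC18 was lower, at 8.32, 8.16 and 8.0 FPKM. In FPKM it varied less (CV 1.98%), a small spread that depends on the scale. DNAJB8 was listed at 0 in every line.

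DNAJB5 had the largest ratio of FPKM + 1 between lines of the 56 genes, although the CV of TRIM9, at near 0 FPKM, was larger (90.4% against 79.3%). It was at 2.75, 7.79 and 1.74 FPKM in Feline ASC 1, 2 and 3, so Feline ASC 2 stood above both other lines. DNAJB5 lies on chromosome D4 from 58980609 to 58990861. The contractile genes that could be looked up (2 of 4) were also highest in Feline ASC 2, with SMTN at 44.7, 112 and 56.3 FPKM and LMOD1 at 27.4, 109 and 22.0 FPKM. This position was not particular to contractile genes. The stromal genes COL5A1 (178, 480 and 261 FPKM) and ENG (72.5, 117 and 73.9 FPKM) were highest in Feline ASC 2 too. So were 43.4% of all genes of at least moderate level. The part of contractile cells in the level of DNAJB5 was not tested.

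**Figure D3:**
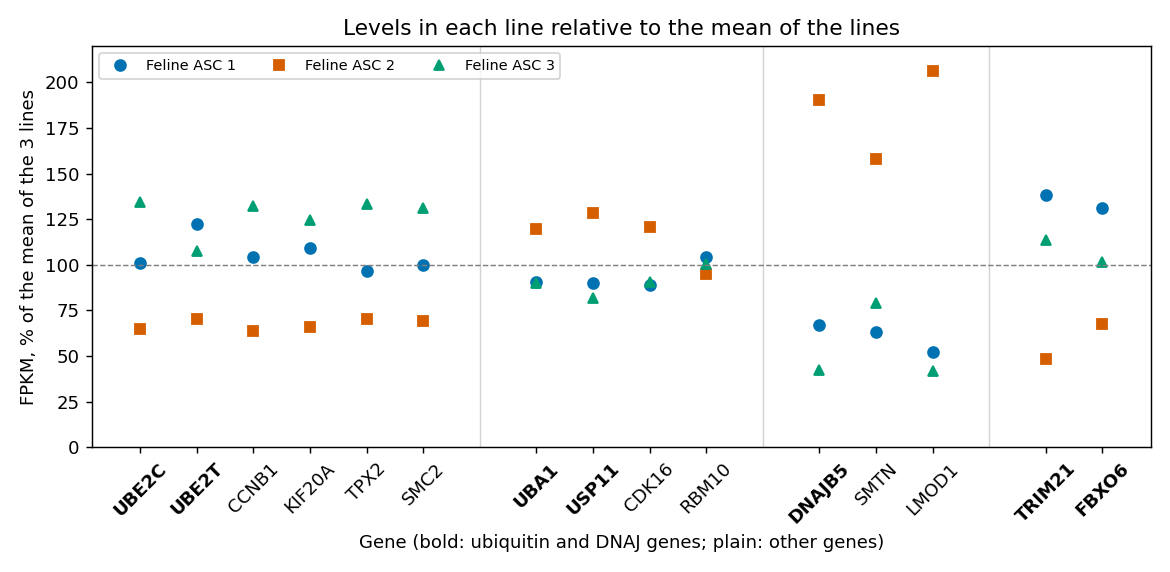
FPKM in each line as a percentage of the mean of the 3 lines, for members (bold) and for the cell cycle, chromosome X and contractile genes given beside them. Feline ASC 2 (squares) is lowest for UBE2C, UBE2T, TRIM21 and FBXO6 and highest for UBA1, USP11 and DNAJB5, where it reaches 190.5% of the mean.

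A 2-fold or larger difference between the highest and the lowest line (FPKM + 1) was found for 3 of the 56 genes. This is 5.36% of them, against 6.14% of all genes and 7.40% of genes with a symbol. These shares are not fully alike, because genes under 1 FPKM in every line cannot reach the ratio. Such genes were 17.9% of the members, 46.1% of all genes and 34.3% of genes with a symbol. The genes were DNAJB5 (ratio 3.22), TRIM21 (2.17) and UBE2C (2.04). Just below the threshold were FBXO6 (1.90) and RNFT2 (1.73). All of these differences involved Feline ASC 2, and with this line left out, 0 genes passed the threshold. DNAJB5 was 2-fold higher in Feline ASC 2 than in Feline ASC 1 (2.14% of all genes) and than in Feline ASC 3 (2.13%). TRIM21 was 2-fold higher in Feline ASC 1 than in Feline ASC 2 (2.11%), and UBE2C in Feline ASC 3 than in Feline ASC 2 (1.77%). Between Feline ASC 1 and 3, 0 members passed in either direction (0.622% and 0.989% of all genes). Counted from a 1.5-fold difference, 9 genes passed (15.5% of all genes).

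**Figure D4:**
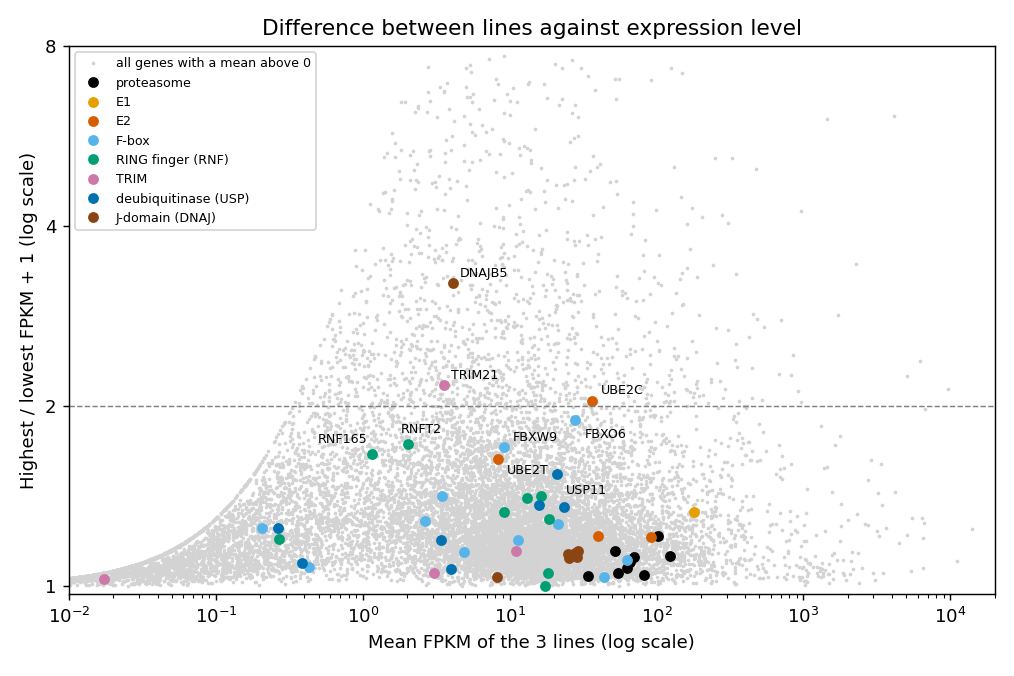
Ratio between the highest and the lowest line, taken of FPKM + 1, against the mean FPKM, both on log axes, for all genes with a mean above 0 (grey) and the members by role. The dashed line marks a ratio of 2, and 68 genes of the series lie above the plotted range. The proteasome genes (black) lie at ratios of 1.04 to 1.22, and DNAJB5, TRIM21 and UBE2C lie above the line.

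Over the 27 genes of moderate level, the median CV was 6.80%, and 18 of them were below the median of 9.72% of all 4755 genes at this level. Their median difference between Feline ASC 2 and 1 was 0.07 on the log2(FPKM + 1) scale, compared with 0.03 for all genes at this level, and that between Feline ASC 3 and 1 was 0.01, as for all genes. Feline ASC 2 had the highest value for 16 of the 27 genes, which is 59.3% against 43.4% of all genes at this level. This position depended on the scale: in TPM the count was 7 (25.3% of all genes), and with quantile normalization it was 12 (35.8%). The scaling to TPM lowered every log2 difference of Feline ASC 2 against Feline ASC 1 by 0.15 before the addition of 1.

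Other genes of the pathway with a symbol were taken from a list of 20 ubiquitin-related genes and 4 chaperones. Of the 20 genes, 6 (30%) were of moderate level, against 22.1% of all genes and 30.4% of genes with a symbol. A further 4 (20%) were under 1 FPKM in every line, against 46.1% and 34.3%. Between lines, 0 differed 2-fold (6.14% of all genes). VCP, the ATPase that extracts tagged proteins from membranes and complexes, was highest with 129, 162 and 135 FPKM. Like UBA1 it was highest in Feline ASC 2. SKP2, the F-box protein that degrades cell cycle inhibitors, was at 5.32, 3.48 and 4.48 FPKM. All 4 chaperone genes were well above the J-domain genes in every line. HSPA8, the constitutive heat shock chaperone with which many DNAJ proteins work, was at 854, 786 and 976 FPKM, HSPA9 of mitochondria at 251 to 261 FPKM, HSP90AA1 at 203 to 222 FPKM and the chaperonin subunit CCT2 at 81.0 to 86.0 FPKM.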

How the data were processed

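Strand-specific mRNA libraries, each made from 200 ng of total RNA, were sequenced from 3 feline ASC cultures. The authors aligned reads to ICGSC Felis Catus 8.0 with HISAT and deposited FPKM values made with Cufflinks and Cuffnorm. Program versions, annotation release and normalization method were not given in the sources used here. The values are not counts, so fragments per gene are unknown and no intervals are given. Steps in values under 0.15 FPKM put the worth of 1 fragment in Feline ASC 1 at 0.911 of that in Feline ASC 2 (59.3% of 663 genes within 1% of a step). Steps against Feline ASC 3 were less plain.

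Symbols and positions came from the study's gene table, with coordinates as given there. Each line was numbered by the labelled column whose values it equalled at all 1997 available genes. The RefSeq gene table carries no Ensembl identifiers and supplied no values or coordinates.

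Means, SDs, CVs and ratios of FPKM + 1 were computed with Python 3.11.15, pandas 2.3.3 and numpy 2.4.6 and plotted with matplotlib 3.10.9. No low-value filter was used. The calculation was tested on simulated lines. Values of every member could be named. Other genes came from fixed lists or adjoined a member. One listed gene is not reported here. Members and lists were chosen with earlier results of these data known. Alternatives were other thresholds, pseudocounts, filters and scales, and leaving out each line.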

Additional observations from a re-analysis of the deposited data

How the results depend on the processing

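Of the counts, the 27 genes of moderate level and the 10 genes under 1 FPKM stayed within 1.5 times under every alternative tried. The 2 genes at 100 FPKM or more became 1 with a threshold 1.5 times higher, and 5 with one 1.5 times lower or with values rescaled to TPM. The 3 genes with a 2-fold ratio became 9 at a ratio of 1.5 (15.5% of all genes) and 5 in TPM (7.69% of all genes). They became 7 with a pseudocount of 0.1, 1 at a ratio of 3 and 1 among genes with a mean of 15 FPKM or more. No share of all genes is given for these last settings, for the changed counts at 100 FPKM or for the lines left out. Those counts therefore do not show a change particular to the members. Leaving out each line gave 0 to 2, with 0 without Feline ASC 2. The median CV of 6.80% was 8.0% in TPM and 7.12% with quantile normalization, and ranged from 4.91% to 7.88% when a line was left out. The threshold of 15 was applied anew each time, so these values cover 30 genes in TPM and 28 without Feline ASC 2. On the log2(FPKM + 1) scale the median SD was 0.0931. The median level of the proteasome genes, 66.4 FPKM, was 102 in TPM, because this scaling raised every value, least in Feline ASC 2. The count of genes highest in Feline ASC 2, an alternative added after seeing the data, went from 16 to 7 in TPM. No paired analysis was possible because the lines form 1 group. Depth limits the lowest genes, where a value may rest on a few fragments.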
